A study of Mus musculus with 160 samples.

Results

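The Runx transcription factors Runx1, Runx2 and Runx3, their partner subunit Cbfb and the repressors Gfi1 and Gfi1b were followed through the culture of blood progenitors from pluripotent stem cells. The 6 genes were taken by name from the 23420 rows of the expression table, and all 6 were found. Runx1 RNA was found in most cells of every group, and that of Runx2, Runx3 and Gfi1b was close to absent from the endothelial cells and present in most cells of the first blood group. Gfi1 was already present in 15 of the endothelial cells, all of which also held RNA of Runx1 and of the endothelial gene Cdh5, as did 44 and 48 of the other 50.

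To trace this step, single mouse cells (strain C57BL/6) were sorted and the polyadenylated RNA of each was amplified and sequenced. The table held 65 induced hemogenic endothelial cells (iHECs) and 21 day-14, 18 day-17 and 56 day-21 induced hematopoietic progenitor cells (iHPCs), in all 160 cells. The iHPC days correspond to 3, 6 and 10 days of maturation. By the labels, every group was derived from ESCs or iPSCs in which Runx1 and Hoxa9 were expressed. The paper names ESCs as the source of the single iHECs and iHPCs. The methods describe a doxycycline-driven cassette in the Rosa26 locus that encodes both factors on a single transcript, joined by a p2a peptide, and the iHPCs matured on OP9-DL1 stromal feeder cells with doxycycline still present. No group without the cassette was analysed here, so every comparison is between cells that carry it.

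The gates differed along with the day. iHECs were sorted as CD31+CD41lowCD45-c-kit+CD201high, day-14 and day-17 iHPCs as CD45+ cells free of lineage markers, and day-21 iHPCs as Ter119-CD45+c-kit+CD127+. Effects of gate and of day cannot be told apart. No label ties a cell to an animal, a culture or an experiment, so each group is 1 sample, cells are not its replicates, and no test was run between groups. An SD below is the spread between cells.

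Runx proteins bind DNA through a shared domain and gain affinity by pairing with Cbfb, which does not itself contact DNA. Runx1 is required for the endothelial-to-hematopoietic transition in the embryo, in which endothelial cells give rise to blood cells. Gfi1 and Gfi1b are zinc-finger repressors known as Runx1 targets in hemogenic endothelium, where they help to silence endothelial genes with the help of the histone demethylase Kdm1a and its Rcor partners.

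Expression was given as TPM, a transcript abundance that is scaled for gene length and to the same total in each cell. A gene was counted as present in a cell above 1 TPM, and levels were averaged as log2(TPM + 1). Intervals beside shares of cells are exact 95% Clopper-Pearson intervals and cover counting error only. TPM keeps no read depth, and the number of genes above 1 TPM stands in for it: it ran from 3309 to 7533 in iHECs (median 4926), from 3103 to 9333 at day 14 (median 8200), from 6536 to 9658 at day 17 (median 8101) and from 3188 to 7950 at day 21 (median 6695.5).

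Some libraries stood apart. In 9 pairs of libraries of the same group the log2 values of all genes correlated at 0.95 or more (Pearson), 4 pairs among iHECs (0.977 to 0.994), 4 among day-14 iHPCs and 1 among day-17 iHPCs. The highest value among all other pairs was 0.835 in iHECs, 0.947 at day 14 and 0.902 at day 17. The iHEC pairs also shared 68.7 to 89.96% of the genes that were above 1 TPM in either cell and present in at most 25% of iHECs, against a median of 6.08% over the pairs of iHECs. The day-14 pairs stood apart less: they shared 35.5 to 56.7% of such genes, and other pairs of that day up to 49.9%. Whether such a pair is 1 cell deposited under a pair of labels was not tested. In addition, 2 day-14 iHPCs and 1 day-17 iHPC went against their gate: the summed TPM of 6 leukocyte markers was 63.7, 38.1 and 17.5 in them, against at least 2741 and 1240 in the other cells of those days. All labelled cells were kept, and values with each pair counted once or without these 3 cells are given where the results rest on them.

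Endothelial and leukocyte markers otherwise mostly followed the labels. The defining endothelial gene Cdh5, which encodes VE-cadherin, was above 1 TPM in 63 of 65 iHECs and at 0 in all iHPCs. In order of day, 3 cells of the group, the limit set here for a count of 0, come to 14.3%, 16.7% and 5.36%, and the upper bounds of the exact intervals are 16.1, 18.5 and 6.38%. The summed TPM of 6 endothelial markers ran from 73.8 to 2668 in iHECs and reached at most 66.7, 114 and 161 in the 3 iHPC groups. Ptprc, which encodes CD45, was above 1 TPM in 1 iHEC and in 19, 17 and 55 iHPCs. That iHEC, iHEC 64, held 53.9 TPM of Ptprc and 0.44 TPM of Cdh5, against its CD45- gate. The 6 leukocyte markers summed to between 0 and 2536 TPM in iHECs (median 34.2). The highest iHEC thus lay above the lowest day-21 cell (1423 TPM), and iHECs were not screened by this sum. Of 6 stromal markers, 5 were at 0 in all iHECs and Col3a1 and Lum in all iHPCs, and their summed TPM ran from 0 to 14.5 in iHECs (median 0), from 0 to 36.6 at day 14 (median 3.35), from 0 to 116 at day 17 (median 53.2) and from 0 to 85.3 at day 21 (median 9.61).

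The 6 genes lie on 6 chromosomes. In GRCm38, Runx1 (ENSMUSG00000022952) spans chr16:92601466-92826149 on the minus strand, Runx2 (ENSMUSG00000039153) chr17:44495987-44814797 on the minus strand and Runx3 (ENSMUSG00000070691) chr4:135120652-135177990 on the plus strand. Cbfb (ENSMUSG00000031885) spans chr8:105170674-105217989 on the plus strand, Gfi1 (ENSMUSG00000029275) chr5:107716657-107726036 on the minus strand and Gfi1b (ENSMUSG00000026815) chr2:28609450-28621982 on the minus strand. Exons of Runx1, Runx2 and Gfi1 share 106, 519 and 101 bases with genes on the opposite strand (Gm26626, Runx2os1 and A430072P03Rik). Whether the counting used strand is not given in the sources used here, so reads of these stretches are uncertain. Runx1 TPM also sums the native gene and the cassette.

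The promoters of the 3 Runx genes share a sequence feature that the choice of genes did not use. Runx1 and Runx3 each have a distal and a proximal promoter in the RefSeq table (GRCm38.p6), which gave 9 windows for the 6 genes, each from 250 bases before the start site to 50 after it. The letters bound by Runx proteins, TGTGGT or on the other strand ACCACA, stood in the distal windows of Runx1 and Runx3 and in that of Runx2. Each of these 3 windows held a pair of copies separated by 2 bases, and that of Runx2 held another single copy, which began 80 bases before the start site (at -80). The following 30-base stretches are printed because they show this pair, in capitals, in all 3 genes; they lie at chr16:92826025-92826054 (minus strand), chr17:44814583-44814612 (minus strand) and chr4:135120503-135120532 (plus strand).
Runx1: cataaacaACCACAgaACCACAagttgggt
Runx2: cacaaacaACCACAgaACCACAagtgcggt
Runx3: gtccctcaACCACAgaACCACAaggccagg
An unbroken run of 18 bases, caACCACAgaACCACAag, was common to the 3 stretches. At least 1 copy of the letters, on either strand, stood in 16.8% of all 32851 promoter windows of that length. The pair of copies 2 bases apart stood in 7 of the 32851. The run of 18 bases was in 4 windows, which belong to 4 genes, among them the 3 Runx genes. The proximal windows of Runx1 and Runx3 and the windows of Cbfb, Gfi1 and Gfi1b held none of these letters, which says only that they are not in these windows.

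The window of Gfi1b held 1 copy of AAATCA, the core letters bound by Gfi1 and Gfi1b themselves, counting both strands, and the 2 windows of Gfi1 held none. These letters were in 13.997% of all promoter windows. The 60 bases before the start site of Gfi1b (chr2:28621983-28622042, minus strand) are shown with them in capitals, since Gfi1b is one of the members past the fold defined below between iHECs and day-14 iHPCs.
Gfi1b: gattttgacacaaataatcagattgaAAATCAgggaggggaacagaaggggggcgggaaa
The GATA letters AGATAA, found in 11.2% of all windows, were in none of the 9. A match of letters is a description and not evidence of binding in these cells.

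Runx1, the factor supplied by the cassette, was the most abundant Runx gene in every group. Its TPM ran from 0.0173 to 240 in the 65 iHECs (median 45.96). At day 14 it ran from 0.134 to 248 (median 87.5), at day 17 from 24.4 to 345 (median 199) and at day 21 from 29.5 to 379 (median 137). The groups overlapped. Of the 65 iHECs, 59 were above 1 TPM for Runx1 (90.8%, interval 81.0 to 96.5), as were all iHPCs but 1. The exception was a day-14 cell, one of the cells that went against the gate. Means of log2(TPM + 1) were 5.03 ± 2.004 (SD, n = 65), 6.21 ± 1.75 (n = 21), 7.32 ± 0.98 (n = 18) and 6.98 ± 0.88 (n = 56).

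Runx1 followed Hoxa9 cell by cell. Hoxa9, a homeobox factor carried on the same cassette transcript, was the gene nearest to Runx1 over the 160 cells (Pearson r = 0.81 on the log2 scale, against a median of 0.17 over 9668 genes). Spearman's rho between Runx1 and Hoxa9 was 0.85 in iHECs, 0.92 at day 14, again 0.92 at day 17 and 0.89 at day 21. In iHECs none of the 6617 genes above 1 TPM in at least 20 cells had a higher rho with Runx1. Of the 6 iHECs without Runx1, 5 also lacked Hoxa9 above 1 TPM. These correlations are across cells that share a sort and a scaling to a fixed total, and they carry no p. Counting each near-identical pair once gave rho of 0.84, 0.95 and 0.92 in the 3 groups that held pairs.

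**Figure D1:**
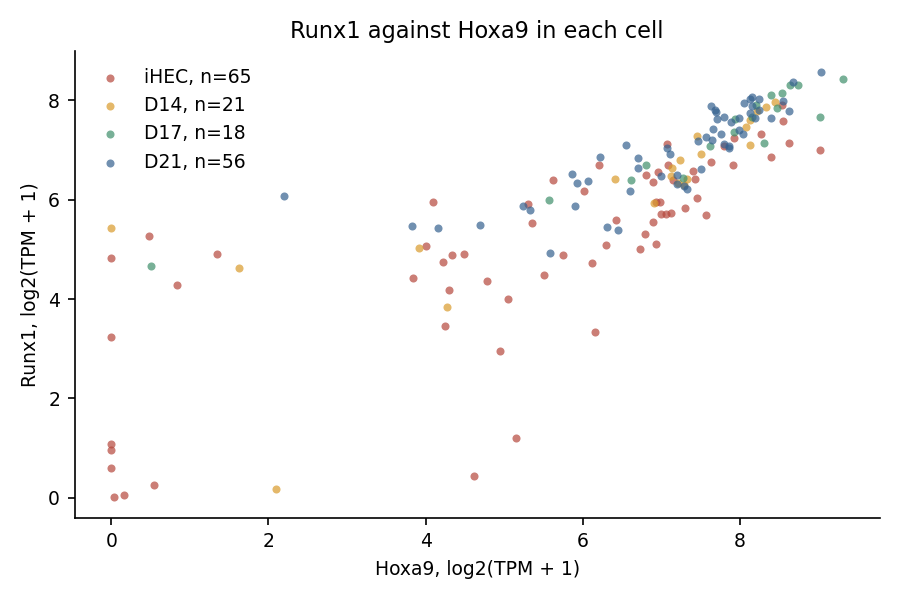
Runx1 against Hoxa9 in each of the 160 cells, both as log2(TPM + 1), with 1 point per cell colored by group. The cells of all 4 groups lie along 1 band (rho 0.85 to 0.92 within groups), and the iHECs without Runx1 sit at the lower left, most of them without Hoxa9.

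Runx2 and Runx3 were not part of the cassette and were rare in iHECs. Runx3, known for roles in CD8 T cells and in innate lymphoid cells, passed 1 TPM in 5 of 65 iHECs (7.69%, interval 2.54 to 17.05). At day 14 it did so in 18 of 21 cells (85.7%, interval 63.7 to 97.0), at day 17 in 16 of 18 and at day 21 in 46 of 56. The highest values of the 4 groups, iHECs first, were 68.5, 37.2, 84.5 and 89.4 TPM, around medians of 0, 9.22, 43.1 and 9.04. The level was thus highest at day 17, where the mean of log2(TPM + 1) was 4.73 ± 2.06, against 0.30 ± 1.14 in iHECs, 3.003 ± 1.74 at day 14 and 3.11 ± 1.92 at day 21. Within day 17, Runx3 went with the summed stromal markers (rho 0.58) and with 6 summed T or innate lymphoid markers (rho 0.71). The lymphoid markers ran from 0 to 104.6 TPM there (median 45.95). At day 21 they ran from 69.6 to 32383 TPM (median 4975), and rho was -0.09 with the stromal and -0.07 with the lymphoid markers. At day 14 rho was -0.19 and 0.38, with the lymphoid markers at 0.34 TPM or less. The part of either in the Runx3 level was not tested. Among the 5 iHECs with Runx3, iHECs 31, 2 and 38 held 68.5, 34.2 and 10.4 TPM of it and were low in Cdh5 (3.59, 1.304 and 3.41 TPM) against a median of 61.1 TPM over all iHECs. The other two, iHECs 23 and 32, held 9.16 and 1.33 TPM of Runx3 and lay above that median (84.3 and 100.5 TPM of Cdh5).

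Runx2, best known as the factor of bone-forming cells, stayed at low levels throughout. Of the 65 iHECs, 2 passed 1 TPM (3.08%, interval 0.37 to 10.7), and in order of day 17 of 21, 13 of 18 and 23 of 56 iHPCs did. Its highest value was 3.05 TPM in iHECs, 9.51 TPM at day 14, 12.1 TPM at day 17 and 18.2 TPM at day 21, with medians of 0, 4.30, 2.33 and 0.43. Mean levels were 0.06 ± 0.33, 2.07 ± 1.16, 1.73 ± 1.24 and 1.16 ± 1.37 on the log2(TPM + 1) scale. Above 1 TPM, Runx2 was most widespread at day 14 (81.0% of cells, interval 58.1 to 94.6) and less so at day 21 (41.1%, interval 28.1 to 55.02). With near-identical pairs counted once, 13 of 17 day-14 cells passed 1 TPM, and the interval (50.1 to 93.2) overlapped that of day 21. Above 10 TPM the shares were 0% at day 14 and 8.93% at day 21. Day-21 cells also had fewer genes detected (median 6695.5 against 8200), and Runx2 went with that number there (rho 0.36).

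Since TPM is per length, the 3 Runx genes were set against each other. Runx1 TPM includes cassette reads, and whether its length scaling holds for them is not known, so the shares are approximate. In order of group, Runx1 took 96.7, 86.4, 79.8 and 88.6% of their summed TPM. Runx3 took 3.18, 10.1, 18.7 and 9.75%, and Runx2 took 0.14, 3.47, 1.499 and 1.65%. Runx1 alone was above 1 TPM in 53 of 65 iHECs but in only 2, 1 and 7 iHPCs of the 3 days, while all 3 Runx genes were above 1 TPM in 1 iHEC and in 17, 12 and 20 iHPCs. Runx3 exceeded Runx1 in 1 iHEC, 1 day-14 iHPC and 2 day-21 iHPCs. How much of the Runx1 share came from the cassette cannot be told apart in these values.

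Cbfb, the non-DNA-binding partner of all 3 Runx proteins, was present throughout. Of 65 iHECs, 50 held it above 1 TPM (76.9%, interval 64.8 to 86.5), as did 20 of 21, 18 of 18 and 54 of 56 iHPCs in order of day. Values ran from 0 to 245 TPM in iHECs, from 0 to 80.7 at day 14, from 25.7 to 187 at day 17 and from 0.0889 to 253 at day 21, with medians of 48.6, 37.9, 65.2 and 75.9. The groups overlapped almost entirely, with means of 4.44 ± 2.78, 5.01 ± 1.35, 6.16 ± 0.82 and 5.97 ± 1.46. Runx1 and Cbfb were both above 1 TPM in 46 of 65 iHECs, and their rho across iHECs was -0.0047.

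**Figure D2:**
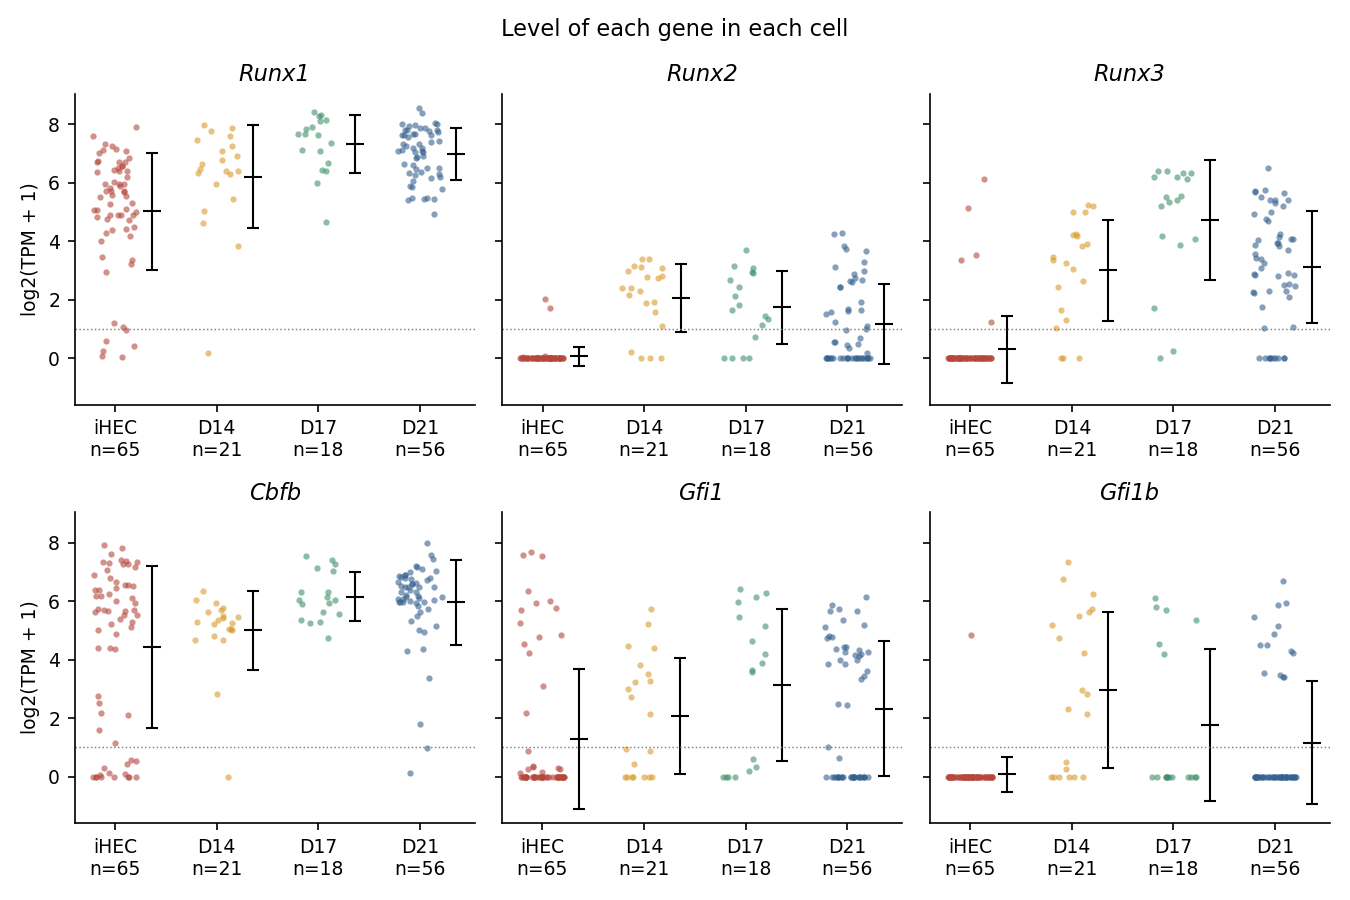
Level of the 6 genes in each cell as log2(TPM + 1), with 1 point per cell, the mean and SD between cells beside each group, and a dotted line at 1 TPM. Runx2, Runx3 and Gfi1b lie at 0 in nearly all of the 65 iHECs, whereas 15 iHECs lie above the line for Gfi1.

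Gfi1, a repressor also known for its part in lymphoid and neutrophil development, was present in a minority of iHECs and at high levels there. It passed 1 TPM in 15 of 65 iHECs (23.1%, interval 13.5 to 35.2), in 11 of 21 iHPCs at day 14 (52.4%, interval 29.8 to 74.3), in 11 of 18 at day 17 and in 30 of 56 at day 21. Over the cells that passed, the median was 50.8 TPM among iHECs and 10.3, 34.3 and 18.8 TPM among iHPCs in order of day, and the highest values were 204, 52.5, 84.3 and 70.5 TPM. The highest Gfi1 value of all 160 cells was thus that of an iHEC. Means over all cells of a group were 1.29 ± 2.40, 2.08 ± 1.99, 3.14 ± 2.59 and 2.33 ± 2.31.

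Of the 15 iHECs with Gfi1, 6 belonged to near-identical pairs. In iHECs 5 and 6 Gfi1 was 60.2 and 63.5 TPM, and in iHECs 24 and 25 it was 26.2 and 17.8 TPM. In the other pairs 1 cell passed 1 TPM and the other was at 0, with 3.54 TPM in iHEC 15 and 7.51 TPM in iHEC 33. With each pair counted once at its mean, 13 of 61 iHECs passed 1 TPM (21.3%, interval 11.9 to 33.7).

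Gfi1b, the paralog required for red cell and platelet formation, showed a different course. A single iHEC passed 1 TPM (1.54%, interval 0.039 to 8.28), and all other iHECs were at 0. At day 14 the share was 13 of 21 cells (61.9%, interval 38.4 to 81.9), at day 17 it was 6 of 18 (33.3%, interval 13.3 to 59.01) and at day 21 it was 14 of 56 (25%, interval 14.4 to 38.4). The medians were 0, 6.09, 0 and 0 TPM, the highest values 27.5, 161, 68.7 and 104 TPM, and the means 0.07 ± 0.60, 2.97 ± 2.67, 1.76 ± 2.60 and 1.17 ± 2.103. The share was thus highest at day 14, where the interval overlapped that of day 17 and lay just above that of day 21. With near-identical pairs counted once, 10 of 17 day-14 cells passed 1 TPM, and the interval (32.9 to 81.6) overlapped both. Erythroid markers were scarce in the same cells: 5 of 6 were at 0 in all day-14 iHPCs, and the 6 together reached at most 11.5 TPM there. Of 6 megakaryocyte markers, 4 passed 1 TPM in some day-14 iHPC, and the 6 summed to at most 93.5 TPM (median 3.003).

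The paralogs were found in different combinations. Among iHECs 15 held Gfi1 alone, 1 held Gfi1b alone, none held both, which a count of 0 allows in up to 3 cells, and 49 held neither. Among day-14 iHPCs 5 held Gfi1 alone, 7 Gfi1b alone, 6 both and 3 neither. The 3 day-14 cells with neither included both that went against the gate, so without them 18 of 19 held at least 1 of the paralogs. At day 17 the counts were 7, 2, 4 and 5, and at day 21 they were 19, 3, 11 and 23. Day-21 cells with Gfi1b thus mostly held Gfi1 too (11 of 14), with a rho of 0.35 between the genes, against -0.23 at day 14, and at day 21 both genes also went with the number of genes detected (rho 0.43 for Gfi1 and 0.19 for Gfi1b).

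**Figure D3:**
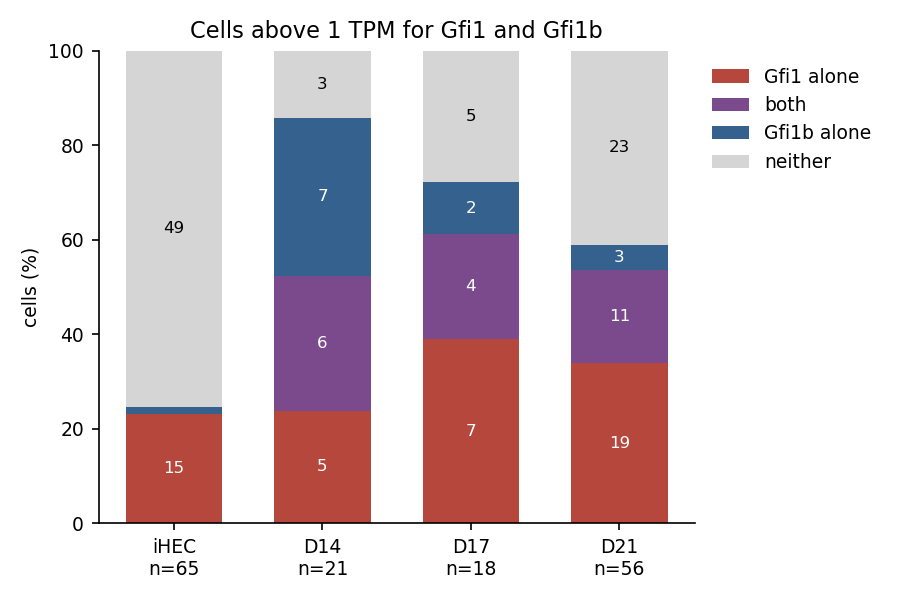
Share of cells of each group above 1 TPM for Gfi1 alone, both paralogs, Gfi1b alone or neither, in percent, with the number of cells printed in the larger segments. Neither gene was found in 49 iHECs and 3 day-14 iHPCs, and Gfi1b alone in 7 day-14 and 3 day-21 iHPCs.

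In iHECs the 2 repressors were then set against Runx1 and Cdh5 in the same cell. All 15 iHECs with Gfi1 were above 1 TPM for Runx1, for Hoxa9 and for Cdh5 (interval 78.2 to 100% in each case). Of the other 50, 44 were so for Runx1, 40 for Hoxa9 and 48 for Cdh5. Spearman's rho between Gfi1 and Hoxa9 was 0.12. Runx1 ran from 25.96 to 159 TPM (median 83.4) in the 15 cells and from 0.0173 to 240 TPM (median 41.9) in the other 50. The 25.96 TPM is the lowest Runx1 value of these 15 cells, and a threshold of Runx1 was not tested. The ranges overlapped, and Spearman's rho between Gfi1 and Runx1 was 0.22 over the 65 cells, or 0.13 given the number of genes detected. Among 6617 genes, 946 had a higher rho with Gfi1. The cells with Gfi1 also had more genes above 1 TPM (4068 to 7533, median 5954) than the others (3309 to 7447, median 4755.5), for which the value of 0.13 is adjusted.

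Cdh5 did not follow Gfi1 in either direction. It ran from 3.41 to 427 TPM (median 61.5) in iHECs with Gfi1 and from 0 to 356 TPM (median 60.7) in the others, with a rho of -0.00038. The 3 iHECs highest in Gfi1 show the spread. iHEC 36 held 204 TPM of Gfi1 and 427 TPM of Cdh5, the highest Cdh5 value of all. iHEC 56 held 190 TPM of Gfi1 and 31.9 TPM of Cdh5, and iHEC 38 held 184 TPM of Gfi1 and 3.41 TPM of Cdh5.

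Gfi1 went more closely with Itga2b, which encodes CD41, an early surface marker of blood commitment and of megakaryocytes. Itga2b was above 1 TPM in 12 of the 15 iHECs with Gfi1 (80%, interval 51.9 to 95.7) and in 14 of the other 50 (28%, interval 16.2 to 42.5), with a rho of 0.38 over the 65 cells, and 78 of 6617 genes had a higher rho with Gfi1. With pairs counted once these were 9 of 13 and 14 of 48 cells and a rho of 0.38. Gata2, a factor required for hemogenic endothelium, was above 1 TPM in 10 of the 15 and 16 of the other 50, with a rho of 0.24. CD41 was itself part of the gate, which bounds the protein.

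The single iHEC with Gfi1b, iHEC 2, held 27.5 TPM of it. The same cell held 138 TPM of Runx1, 34.2 TPM of Runx3, 380 TPM of Itga2b and 1.304 TPM of Cdh5, with Gfi1 and Gata2 at 0 and 7447 genes detected. Any relation of Gfi1b with another gene in iHECs, such as rho of 0.18 with Runx1 and -0.20 with Cdh5, rests on this cell.

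**Figure D4:**
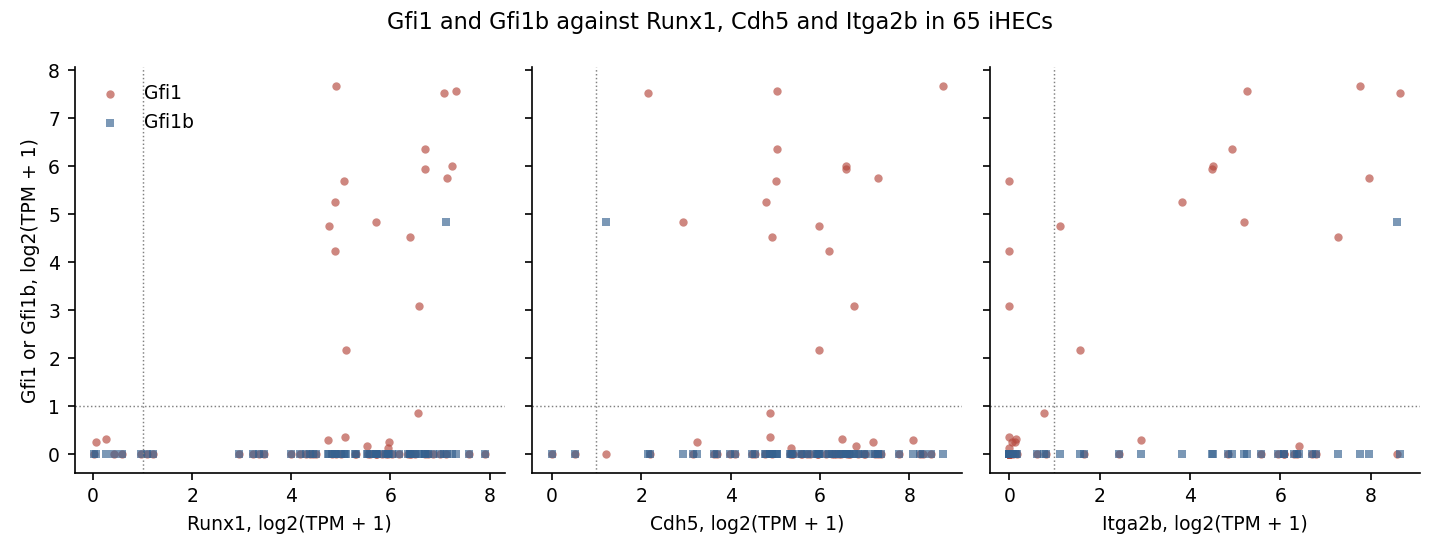
Gfi1 (circles) and Gfi1b (squares) against Runx1, Cdh5 and Itga2b in the 65 iHECs, all as log2(TPM + 1), with dotted lines at 1 TPM. The 15 cells with Gfi1 range from 25.96 to 159 TPM of Runx1 and from 3.41 to 427 TPM of Cdh5. The single cell with Gfi1b sits low in Cdh5 and high in Itga2b.

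In the iHPC groups Cdh5 was at 0 and the repressors could be set only against Runx1. Spearman's rho of Gfi1 with Runx1 was 0.42 at day 14, -0.03 at day 17 and 0.31 at day 21, and at day 21 it was 0.07 given the number of genes detected. Spearman's rho of Gfi1b with Runx1 was 0.09, -0.09 and -0.15 in order of day, the last being -0.34 given the number of genes detected. At day 21 Gata2 ran from 0 to 1739 TPM and the 6 mast cell markers summed to between 81.3 and 82600 TPM, against at most 165 TPM in any other group, and the part of this in the values of the members was not tested. Gata2 was above 1 TPM in 18 of the 30 day-21 cells with Gfi1 and in 8 of the 14 with Gfi1b, against 34 of all 56. Spearman's rho of Gata2 with Gfi1, Gfi1b and Runx3 at day 21 was -0.07, -0.05 and -0.07, and with Runx1 it was 0.36.

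To set the members beside all other genes, group means of log2(TPM + 1) were subtracted between consecutive groups, later minus earlier, for the 9674 genes that passed 1 TPM in over 30 cells. All 6 members passed this filter, which the blood groups alone could satisfy. The median gene moved by 0.93, 0.28 and -0.74 over the 3 steps, so each difference is also given relative to that median. A difference of at least 1 from the median is called past the fold.

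From iHECs to day-14 iHPCs, 3 of 6 members were past the fold upwards and 0 downwards, beside 27.3% and 24.4% of all genes. Gfi1b was higher by 2.90 (1.97 relative to the median), Runx3 by 2.71 (1.78) and Runx2 by 2.01 (1.08). Runx1 differed by 1.18 (0.26), Cbfb by 0.57 (-0.36) and Gfi1 by 0.79 (-0.14). The relative value of Gfi1 was 0.02 with near-identical pairs counted once and 0.07 without the 3 cells against their gate, so its side of the median was not settled, nor were those of Runx1 and Cbfb over the alternatives run. With a pseudocount of 10, which damps low values, Runx2 and Runx3 were under the fold (0.27 and 0.67) and Gfi1b was at 1.01.

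From day 14 to day 17, 1 member was past the fold upwards and 1 downwards, beside 9.03% and 7.09% of all genes. Runx3 was higher by 1.73 (1.45 relative to the median) and Gfi1b lower, with a difference of -1.21 (-1.48). Runx1, Cbfb and Gfi1 were each higher by 1.11, 1.16 and 1.06 (0.84, 0.88 and 0.78), and Runx2 differed by -0.33 (-0.61). Under a pseudocount of 10 neither was past the fold, with Runx3 at 0.96 and Gfi1b at -0.65.

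From day 17 to day 21 none of the 6 was past the fold, beside 10.3% of all genes upwards and 13.1% downwards. Runx3 had the largest difference, -1.62 (-0.88 relative to the median), and it was past the fold at -1.15 without the 3 cells against their gate. Runx1 differed by -0.34 (0.40), Runx2 by -0.57 (0.17), Cbfb by -0.20 (0.54), Gfi1 by -0.81 (-0.08) and Gfi1b by -0.59 (0.14). In the order of group means, 1 of 18 neighboring pairs differed by more than the larger of the 2 SDs, which was Runx3 between iHECs and day-14 iHPCs. Fewer cells with a gene and less RNA of it per cell both lower such a mean, and the shares of cells above give the first.

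**Figure D5:**
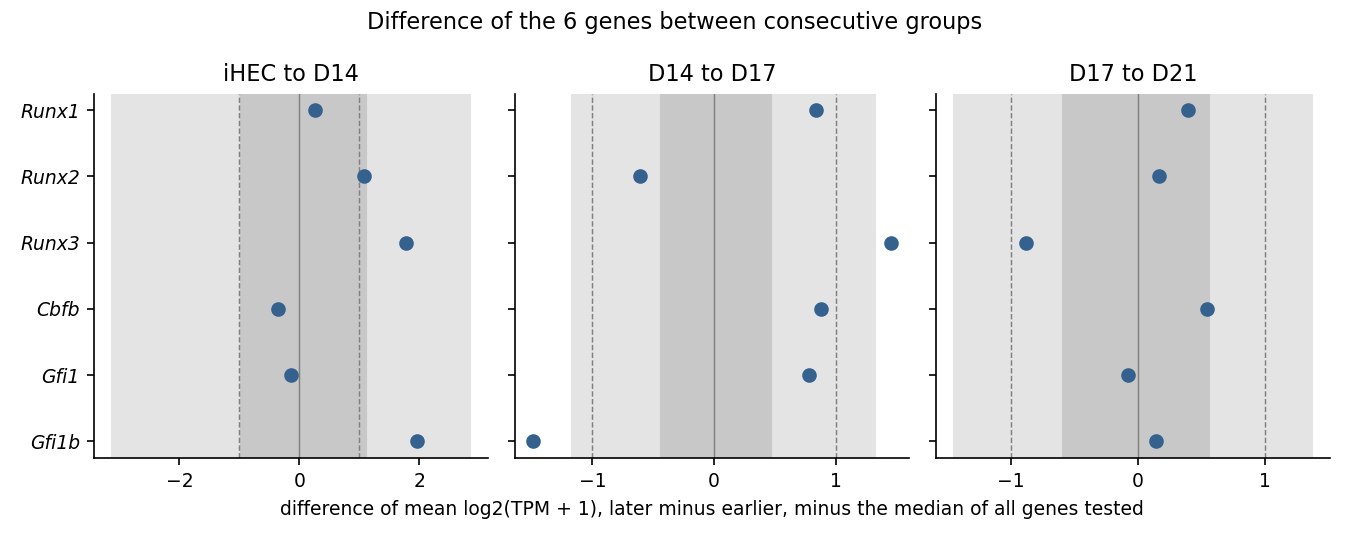
Difference of each member between consecutive groups, relative to the median of 9674 genes, on the log2(TPM + 1) scale. Light and dark bands hold 90 and 50% of all genes, and dashed lines mark the fold: Gfi1b lies right of it from iHECs to day 14 (1.97) and left of it from day 14 to day 17 (-1.48).

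The partners of these proteins were read from lists of known genes. Of all genes, 27.3% were past the fold upwards and 24.4% downwards at the first step. The shares were 9.03% and 7.09% at the second and 10.3% and 13.1% at the last, to be set beside every list that follows. Of 11 genes of the Gfi1 and Gfi1b corepressor complex, all of which passed the filter, 2 were past the fold upwards from iHECs to day 14 (Rcor1 at 1.62 and Rcor2 at 1.40 relative to the median) and 2 downwards (Phf21a at -1.85 and Rcor3 at -1.12). Neither count exceeded the share of all genes, and the list median was 0.45. Kdm1a, the demethylase of the complex, passed 1 TPM in 38 iHECs and in 19, 15 and 44 iHPCs of the 3 days, and its relative difference at that step was -0.20. From day 14 to day 17 none was past the fold in either direction (list median 0.22), and those past the fold from day 17 to day 21 included Phf21a, which was higher (1.18), and Rcor2, which was lower (-1.41).

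Of 12 Runx cofactors, 11 passed the filter and Runx1t1 was listed at 0 in all cells. At the first step Prmt1, an arginine methyltransferase, was higher at 1.11 relative to the median, while Cbfa2t2 (-2.104), Crebbp (-1.54) and Ep300 (-1.39) were lower, with a list median of -0.16. The count upwards lay below the share of all genes, and the count downwards near it. Tle4, a Groucho corepressor, was the single cofactor past the fold from day 14 to day 17 (1.61), and none was from day 17 to day 21. Of 6 factors that bind with Runx1 in blood cells, Fli1 (-2.22) and Gata2 (-2.06) were lower at the first step, Lmo2 (-2.96) and Tal1 (-1.88) at the second, and at the last Gata2 (4.15), Tal1 (1.19) and Erg (1.04) were higher and Lmo2 (-1.95) lower.

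Known Runx1 targets were mostly filtered out, with 2 of 11 left. Both were past the fold upwards at the first step, Sfpi1, which encodes the myeloid factor PU.1, at 5.37 relative to the median and Nfe2, a megakaryocyte and erythroid factor, at 2.999, and Nfe2 was lower from day 17 to day 21 (-2.25). All 10 genes of the endothelial list were past the fold downwards at the first step, from -4.65 for Pecam1 to -8.16 for Sox18, with a list median of -5.68. At the same step Gfi1b, Runx3 and Runx2 were past the fold upwards, as were 27.3% of all genes, and Gfi1 was not set apart from the median gene. A link between the members and the endothelial list was not tested.

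The genes whose pattern over the 160 cells was most like that of each member were found by Pearson r of log2(TPM + 1). For Runx3 they were Cyfip2 (0.75), Lsp1 (0.74) and Plac8 (0.73), against a median r of 0.17 over all genes, and for Runx2 they were Stap1 (0.62), Il17ra (0.61) and Coro2a (0.61). Runx1 had Acap1 (0.59) and Itgal (0.59) after Hoxa9, and Cbfb had Anp32e (0.55), Abcf1 (0.50) and Rangap1 (0.49). The r of Gfi1b was highest with Tmem229b (0.50), Prtn3 (0.47) and Ccl9 (0.47), and that of Gfi1 with Rxrb (0.46), Ell (0.44) and Hnrnpul1 (0.44). These r values mix differences between groups with those inside them. Within iHECs, Gfi1 had its highest Spearman's rho with Timp2 (0.66), Ell (0.56) and 5830418K08Rik (0.55), against a median of 0.07 over 6617 genes.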

How the data were processed

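The authors made and amplified cDNA of single sorted cells with the Discover-sc WTA Kit V2, prepared libraries (TruePrep DNA Library Prep Kit V2), aligned reads to mm10 with HISAT2 2.1.0 and estimated TPM with StringTie 1.3.4, and deposited these TPM values in a single table. Labels and methods name different sequencers, and any tagging of molecules is not given in the sources used here. Summed over genes, cells held 988686 to 999108 TPM. No count or depth is kept, so precision was read from the number of cells only.

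Cells were grouped by their labels. Values were analysed as log2(TPM + 1) with Python 3.11.15, pandas 2.3.3, numpy 2.4.6 and scipy 1.17.1. No cell was left out. No p-value was computed, since each group is 1 sample. Members, lists, markers and tests were chosen with earlier results of these data known. Named were the 6 members, Cdh5, Hoxa9 and Gata2, genes of the lists and markers, and the 3 genes most like each member. Cells singled out by number, and Itga2b as a partner of Gfi1, were chosen after their values were seen. Ranking steps were tested on simulated data. Positions are from a GENCODE annotation of GRCm38 and promoters from RefSeq. Alternatives changed the pseudocount, the scaling, the mean, the filter, the detection threshold and the cells used. The value of 1 gene of the corepressor list is not reported here.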

Additional observations from a re-analysis of the deposited data

How the results depend on the processing

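No value changed its called direction under any alternative run. Of 144 recomputed differences of members, 143 moved by less than the SD between cells, and the exception was Runx2 from iHECs to day 14, at 2.59 relative to the median with a pseudocount of 0.1. Members that were not past the fold lay on both sides of the median gene over the alternatives. At the first step these were Gfi1 (-0.42 to 1.05), Runx1 (-0.54 to 1.18) and Cbfb (-1.43 to 0.57), and at the last they were Gfi1 (-0.81 to 0.43), Runx1 (-0.34 to 0.88), Runx2 (-0.67 to 0.299), Cbfb (-0.20 to 0.96) and Gfi1b (-0.59 to 0.71). The number of members past the fold was less stable. From iHECs to day 14 it was 1 upwards with a pseudocount of 10, 4 with group medians or no filter on the background, and 1 downwards with group medians. From day 14 to day 17 it was 2 upwards with a pseudocount of 0.1 or group medians, 4 with no filter on the background and 0 with a pseudocount of 10, which also gave 0 downwards. From day 17 to day 21 it was 1 downwards with group medians, with no filter or without the 3 cells against their gate. The median of the endothelial list was -9.04 and -2.86 from iHECs to day 14 with pseudocounts of 0.1 and 10, and 0.28 from day 17 to day 21 with 10.

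Above 0 TPM, Runx1 was present in 100% of iHECs and 100% of cells at day 14 (also 100% there without the cells against the gate), Runx2 in 57.1% of day-21 iHPCs, Cbfb in 87.7% of iHECs and 100% of day-21 iHPCs, and Gfi1 in 35.4% of iHECs. Above 10 TPM, Runx2 was present in 0, 0, 5.56 and 8.93% of the 4 groups, Runx3 in 47.6% at day 14 and 46.4% at day 21, and Gfi1 in 28.6% at day 14. The single iHEC with Gfi1b, with 1.304 TPM of Cdh5, was not above 10 TPM for Cdh5. Without the 10% of cells with the fewest genes Cbfb was present in 100% at day 14 and day 21. The 20 recomputed correlations in iHECs kept within the spread of the reported ones. Counting near-identical pairs once and leaving out the 3 cells were chosen after the data had been seen.

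No paired analysis was possible because the numbers shared between groups only name cells and no result comes from a test. Leaving out a replicate has no counterpart with 1 sample a group. TPM keeps no depth, so an absence in a cell cannot be told from a missed molecule.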
